A study of Mus musculus with 5 samples.

Results

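Integrins are cell surface receptors, each a pair of 1 alpha and 1 beta chain, that bind the extracellular matrix or other cells. On the inner side of the membrane, talin, vinculin and alpha-actinin link the beta chain to actin filaments, and kinases and scaffolds gather there in the structure called a focal adhesion. In the aorta, smooth muscle cells hold on to the elastic and collagen layers of the wall through such contacts, and leukocytes use integrin chains of their own to adhere to endothelium.

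Transcripts of these genes were compared between aortas of male db/db mice and of male db/+ mice, both aged 16 to 20 weeks and fed chow. The db/db mice were homozygous for the db allele of the leptin receptor gene Lepr and the db/+ mice heterozygous, so that both groups carried the allele, in the strain given as BKS.Cg-m +/+ Leprdb/J. In that name, m is the coat colour mutation misty, written on the chromosome opposite to db; the labels gave no separate misty genotype. The db/db group had 3 arrays, replicates 1, 2 and 3, and the db/+ group had 2, replicates 2 and 3; 1 further db/+ pool that the series' text mentions was not analysed here. Each array held the pooled RNA of 6 aortas, from which the outer layer and surrounding fat had been removed, so the spread between arrays is that between pools and is expected to be smaller than that between mice.

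The members were all probe sets annotated to 1 gene whose symbol is Itga or Itgb followed by a letter or number, without the Itgb1bp genes, or to 1 of 10 named focal adhesion genes. They numbered 65 probe sets of 33 genes, among 22626 probe sets of the array other than controls. Of the genes, 15 encode integrin chains other than those of leukocyte integrins, 7 encode chains of leukocyte integrins (Itgal, Itgam, Itgax, Itgae, Itgb2, Itgb2l and Itgb7), 9 encode focal adhesion proteins, and 2 fit the naming rule without encoding an integrin chain. That pair is Itgbl1, a secreted protein with integrin-like repeats, and Itgb3bp, a nuclear protein of the centromere. Ptk2, the focal adhesion kinase gene, was in the rule but had no probe set with it as the single symbol.

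Values are MAS5 signals, a linear measure of brightness per probe set. The test was limma on log2(signal + 16), across the 13574 probe sets whose mean signal was above 40.6, the 40th percentile. Log2 changes are db/db minus db/+, on that scale, which understates changes of dim probe sets; intervals are 95% intervals from limma. Of the members, 42 probe sets of 21 genes were tested, and 23 probe sets were too dim. Each gene is represented by its probe set with the highest mean. Any pair of arrays correlated across tested probe sets with r between 0.951 and 0.976, and the 3′ to 5′ ratio of the actin control, which reads RNA integrity, was 1.14 at its lowest and 1.34 at its highest. Markers of the labelled tissue were measured on every array: the 9 smooth muscle markers summed to between 25345 and 30957 in db/db and between 22845 and 26177 in db/+. Transcripts of fat were present as well, with summed signals of 7 adipocyte markers between 7599 and 13752 in db/db and between 10954 and 11370 in db/+, and cardiac markers were highest in db/db replicate 2 (3880, against 507 and 756 in the other db/db arrays and between 1074 and 1501 in db/+). The adipocyte sums overlapped, but signals of 4 of the 7 markers (57.1%) did not, against 25.7% of all genes tested. Of those, 3 were lower in db/db and 1 was higher. Lep, 1 of the lower ones, was the only marker of the 7 to pass the test (log2 change −2.96, limma adjusted p = 0.0064).

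No integrin or focal adhesion probe set passed the test. Of the 42 tested, 0 had a limma adjusted p under 0.05, against 13 of all 13574 probe sets (0.0958%), all of them lower in db/db. At an unadjusted p under 0.05 there were 3 (7.14%), where the whole array gave 8.16%. They were Itgb2 and a second probe set of Itga5, lower in db/db (4.19% of the array was lower), and Itga3, higher (3.97% was higher). Signals of the genotypes did not overlap at 8 member probe sets (19.0%), against 25.0% of all tested. Neither share lay above that of the whole array. Leaving out db/db replicate 2 gave 5 members under that unadjusted level, and the count of calls over all probe sets was 1 without either db/+ array.

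By their representative probe sets, transcripts of the members other than leukocyte chains were close in level between genotypes, as were those of most genes tested. The median log2 change was 0.04 over the 20 tested genes other than leukocyte chains, against 0.02 over all 8261 genes tested, and each of the 20 lay between −0.25 and 0.39. For all 20 the 95% interval stayed within a 2-fold change either way, and for 13 of them within 1.5-fold. The share of all genes with such intervals was not computed. All 20 log2 changes were within 0.5 either way, as were those of 7729 of the 8261 genes. The median size of the change, sign aside, was 0.16 over the 20, against 0.15 over all genes. At dimmer probe sets the interval reached beyond 2-fold, to log2 changes of −1.93 and 1.19 for Actn1 and of 1.03 for Src. By array, the median of the 20 genes relative to the db/+ mean was 0.09, −0.0027 and 0.03 in db/db replicates 1, 2 and 3. The p-values and intervals measure the spread between these pools, and the number of arrays limits their precision.

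**Figure D1:**
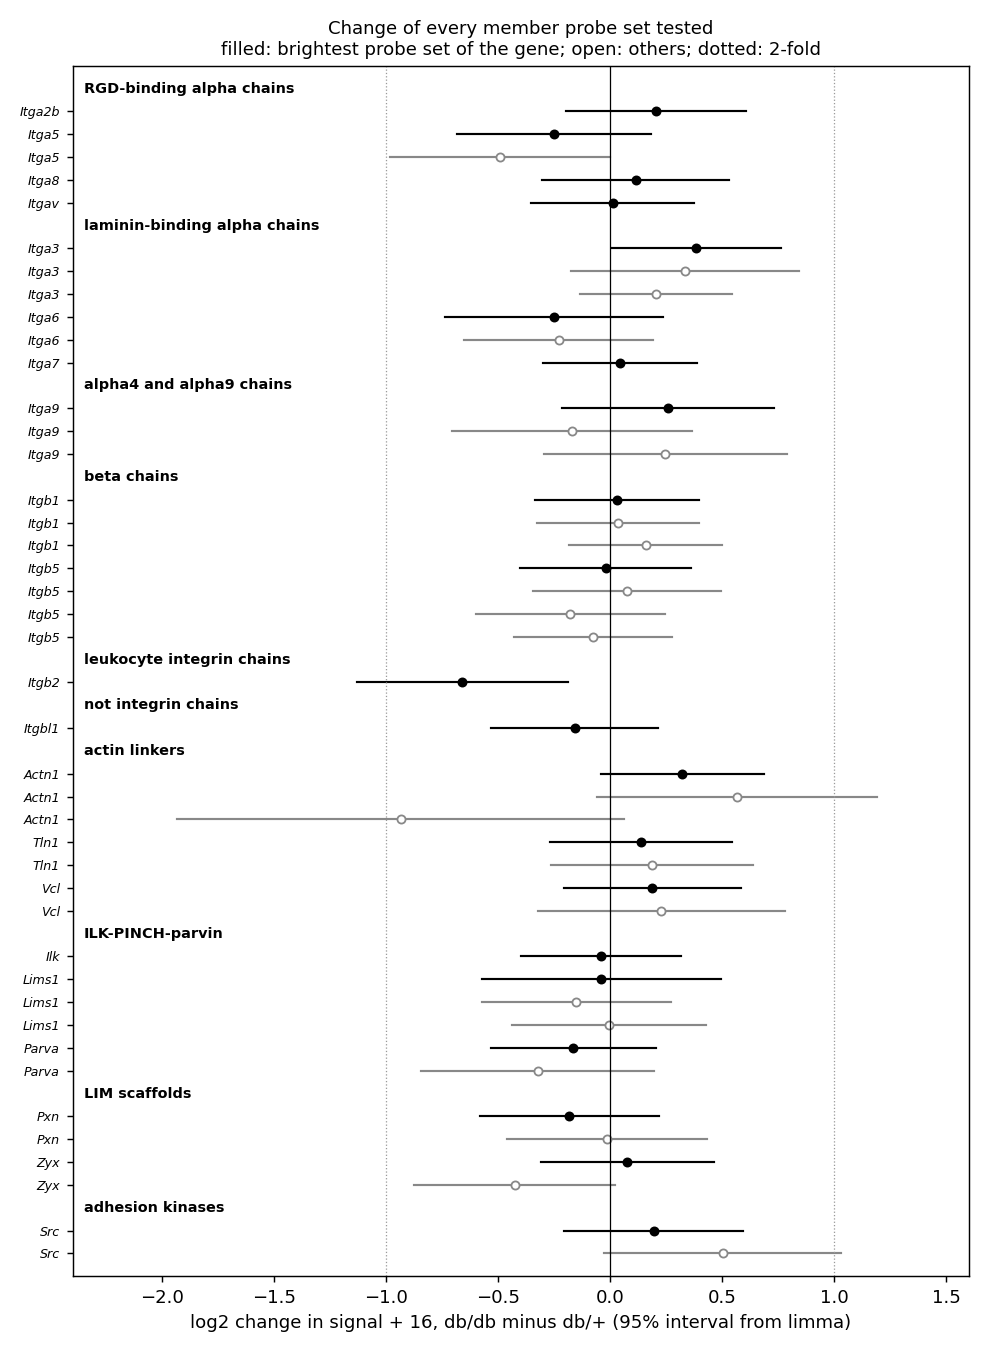
Log2 change of each of the 42 member probe sets tested, db/db minus db/+ (x axis, log2 of signal + 16), with its 95% interval from limma (horizontal line); rows are probe sets grouped by role, filled points the brightest probe set of each gene and open points its others. Most points lie near 0. The interval of Itgb2 lies wholly below 0, as does, barely, that of the dimmer probe set of Itga5. That of the brightest probe set of Itga3 lies barely above 0, and 1 probe set of Actn1 has the widest interval.

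Among the beta chains, Itgb1, the common partner of most alpha chains in the vessel wall, differed little. Its brightest probe set had signals of 1863.5, 1570.2 and 1586.5 in db/db replicates 1, 2 and 3, against 1658.6 and 1607.1 in db/+ replicates 2 and 3. The groups overlapped, and the log2 change was 0.03 (95% interval −0.33 to 0.40, adjusted p = 0.98). Its 2 other tested probe sets gave 0.04 and 0.16, and 3 more were too dim to test. Itgb5, a chain that pairs with alpha v, likewise had a log2 change of −0.02 (−0.40 to 0.36), with its 4 tested probe sets between −0.18 and 0.08. Its brightest probe set, another of its 4 and the Itgb1 probe set at 0.16 are of a type that can read unrelated transcripts. Itgb3, Itgb4 and Itgb6 were not tested. Itgb3, the beta chain of the platelet fibrinogen receptor and another partner of alpha v, had signals between 7.9 and 8.9 in db/db and of 6.5 and 7.0 in db/+. Itgb4, the laminin-binding chain of hemidesmosomes, had 33.5, 32.5 and 23.4 in db/db, against 43.5 and 47.8 in db/+. Those 2 groups of Itgb4 values did not overlap, but both lay close to or under the filter's level, and with no filter its adjusted p was 0.67.

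The alpha chains that bind the RGD motif of fibronectin and vitronectin gave mixed signs. Itga5, the fibronectin receptor chain, had signals of 571, 496.3 and 431.2 in db/db, against 677.7 and 519.8 in db/+. Only db/db replicate 1 lay inside the db/+ range, and the log2 change was −0.25 (SE 0.19, adjusted p = 0.81). A dimmer probe set of Itga5 had 266.7, 187.6 and 186.1 in db/db, against 353.4 and 258.3 in db/+, which is a log2 change of −0.49 (SE 0.21, unadjusted p = 0.050, adjusted p = 0.61). Here too db/db replicate 1 lay within the db/+ range, and without it the log2 change of this probe set was −0.65. It was −0.28 without db/+ replicate 2, and its unadjusted p was then 0.34. The brighter probe set of Itga5 had a log2 change of −0.065 without db/+ replicate 2 and of −0.15 without db/db replicate 3. The brighter probe set of Itga5 is of a type that can read related transcripts as well, as are the brightest ones of Lims1, Parva, Pxn and Src.

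Itga8, the alpha chain of a smooth muscle receptor for nephronectin, had 1980.1, 1503.1 and 2054.5 in db/db, against 1674.2 and 1704.8 in db/+. The db/db arrays lay on both sides of the db/+ arrays (log2 change 0.11, SE 0.18, adjusted p = 0.92). Itgav, the alpha v chain of vitronectin receptors, had a log2 change of 0.01 (−0.35 to 0.37), with signals between 863.4 and 922.7 in db/db and of 804.7 and 957.2 in db/+. Itga2b, the platelet and megakaryocyte chain, had 97.9, 74.3 and 72.7 in db/db, against 63.7 and 72.9 in db/+ (log2 change 0.20 with SE 0.18, limma adjusted p = 0.84). Its highest value was that of db/db replicate 1, and the other 4 arrays lay between 63.7 and 74.3.

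Of the laminin-binding alpha chains, Itga3 was the only member other than Itgb2 whose representative probe set had an unadjusted p under 0.05. Its signals were 527.8, 587 and 608.4 in db/db, against 478.4 and 395.9 in db/+. All db/db arrays were above both db/+ arrays, and the means were 574 ± 41.8 in db/db and 437 ± 58.3 in db/+ (SD, n = 3 and 2). The log2 change was 0.39 (SE 0.16, unadjusted p = 0.046), and it did not pass over all probe sets (adjusted p = 0.61). Without db/+ replicate 3 the log2 change of Itga3 was 0.25 (unadjusted p = 0.29). The unadjusted limma p was also above 0.05 with a pseudocount of 1 (0.057), with the mean of its probe sets (0.072), and with replicate 2 (0.081) or replicate 3 (0.11) of db/db left out. The 2 dimmer probe sets of Itga3 had log2 changes of 0.33 and 0.21, the second also without overlap, at 161.5, 152.9 and 157.1 in db/db against 136.5 and 131.9 in db/+. Probe sets of a gene read the same RNA pools and are not replicates of each other.

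Of the other laminin-binding chains, Itga6 had a log2 change of the opposite sign to Itga3 and Itga7 a smaller one of the same sign. No difference between these genes was tested. Itga6 had 57.9, 69.2 and 97.8 in db/db, against 101.2 and 80.9 in db/+ (log2 change −0.25 with SE 0.21, limma adjusted p = 0.83). Its db/db replicate 3 lay within the db/+ range, and a second probe set gave a log2 change of −0.23. Itga7, the chain typical of muscle, had 352.8, 325.9 and 338.9 in db/db, against 341.1 and 316.1 in db/+. These values overlapped, with a log2 change of 0.04 (SE 0.15, adjusted p = 0.97).

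Itga9, whose product binds tenascin and osteopontin, had 468.4, 304.1 and 434.5 in db/db, against 346.2 and 311.2 in db/+ (log2 change 0.26 with SE 0.21, limma adjusted p = 0.83). The value of db/db replicate 2 was below both db/+ arrays, while the other db/db arrays were above them. Without replicate 2 of db/db its log2 change was 0.44 (unadjusted p = 0.033, adjusted p = 0.46), and without replicate 1 of db/db it was 0.14. Its other 2 probe sets had log2 changes of 0.25 and −0.17. Itga2, a collagen receptor chain, just missed the filter with a mean signal of 40.04, and the 3 probe sets of Itga4 had signals between 2.7 and 19.4 over all arrays. Itga4 encodes a chain shared by leukocytes and other cells. The dimmest member probe set tested, 1 of Itga6, had a mean of 50.8.

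**Figure D2:**
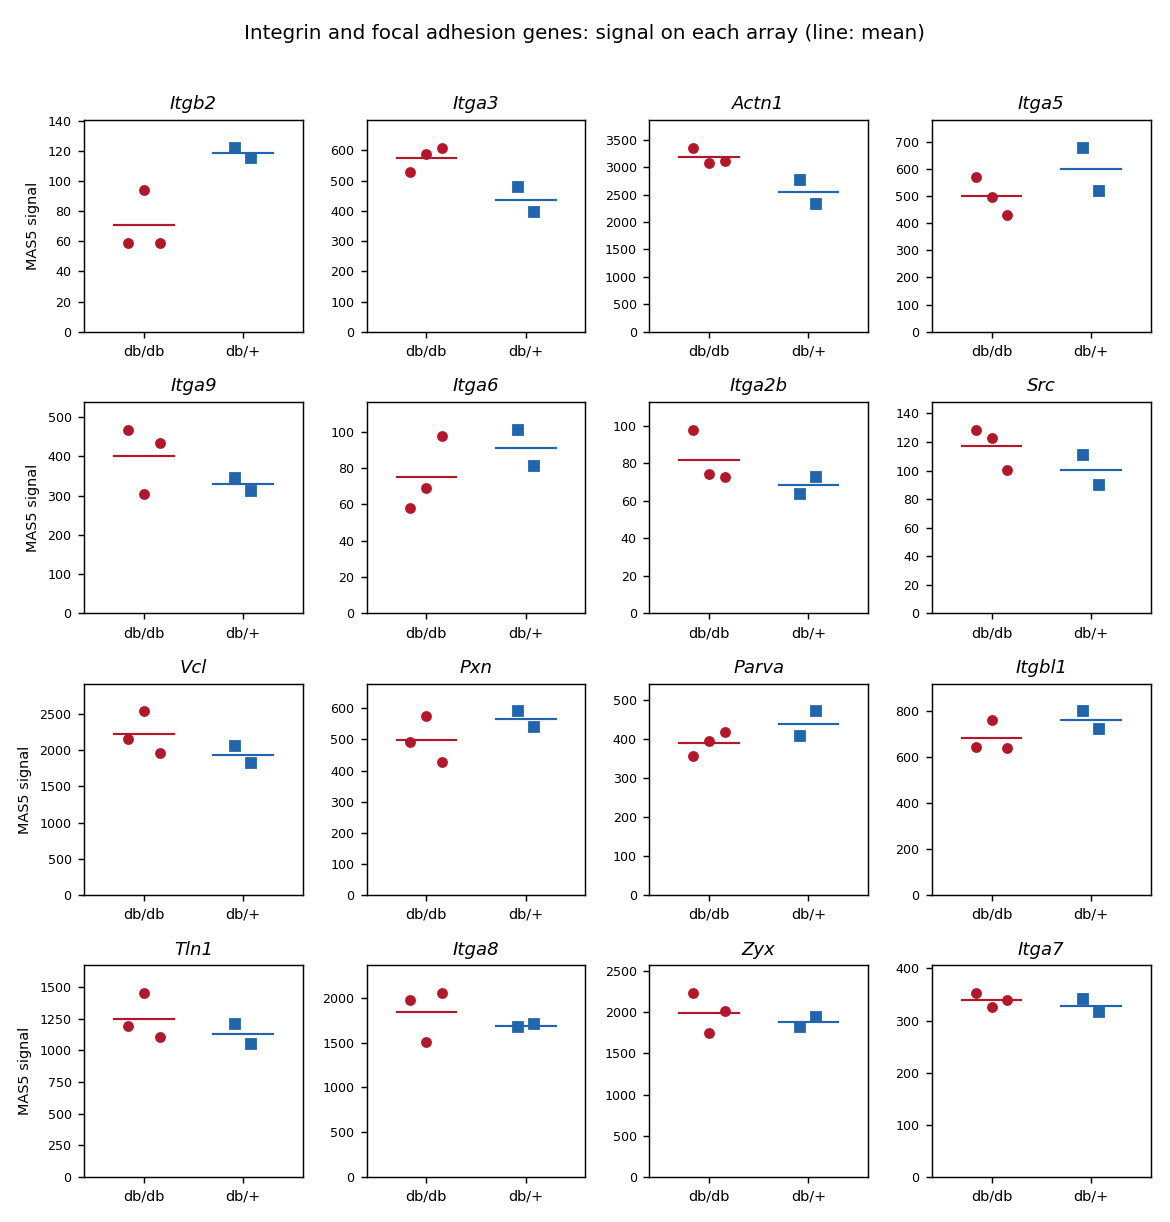
MAS5 signal (y axis, linear, from 0) of the 16 member genes with the smallest unadjusted p, each by its brightest probe set; circles are db/db replicates 1, 2 and 3 from left to right, squares db/+ replicates 2 and 3, and lines are group means. The groups do not overlap for Itgb2, Itga3 and Actn1, and overlap for the other 13.

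The leukocyte integrin chains were dim, and 1 of their 7 genes, Itgb2, was tested. Itgb2 encodes CD18, the beta chain shared by LFA-1 and Mac-1. Its signals were 58.9, 94 and 58.8 in db/db, against 121.9 and 115.2 in db/+. All db/db arrays were below both db/+ arrays, with replicate 2 the closest. The means were 70.6 ± 20.3 in db/db and 118.6 ± 4.74 in db/+ (SD, n = 3 and 2), which is a log2 change of −0.66 (SE 0.21, 95% interval −1.13 to −0.19). Its unadjusted p of 0.012 was the smallest of the members, and it did not pass over all probe sets (adjusted p = 0.42). In the 14 alternatives in which it was tested, the log2 change stayed between −0.85 and −0.45 and the adjusted p was at least 0.16.

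Most markers of macrophages and other leukocytes were lower in db/db beside Itgb2, although none passed the test. Of 11 tested markers, 7 had an unadjusted p under 0.05, all lower in db/db, against 4.27% of all genes in that direction. Their median log2 change was −0.50, against 0.02 over all genes, and 0 had an adjusted p under 0.05. Summed over the 14 markers with a probe set, signals were between 2082 and 2474 in db/db and between 3466 and 4166 in db/+. No marker was at 0 on any array. The largest log2 changes were those of Lgals3, a galectin of macrophages, and Fcer1g, the Fc receptor gamma chain, at −1.15 and −1.63. Signals of Adgre1 (−0.32), Fcgr3 (−0.26) and Ptprc (−0.17) overlapped between genotypes, and the B cell gene Cd79b had 0.49. In pooled tissue, fewer cells of a type and less RNA per cell cannot be told apart, and the part of leukocyte content in the values of Itgb2 was not tested.

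The 6 leukocyte chains under the filter did not share a pattern. Itgam, which encodes CD11b, the Mac-1 partner of CD18, had 17.6, 11.3 and 18.7 in db/db, against 31 and 28 in db/+. The groups did not overlap, but the signals were dim, and with no filter its adjusted p was 0.60. Itgal, the LFA-1 alpha chain, had 35.3, 11 and 37.1 in db/db, against 17 and 9.4 in db/+. Itgax, the CD11c chain of dendritic cells and some macrophages, had 45, 17.9 and 46.6 in db/db, against 43.6 and 35.1 in db/+. For both, db/db replicate 2 lay apart from the other db/db arrays, on the low side. Itgb2l, a close relative of Itgb2, showed the opposite arrangement, with 18.6, 50.7 and 15.8 in db/db against 46.9 and 53.4 in db/+. Itgae and Itgb7 had signals of at most 29.3 on any array.

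**Figure D3:**
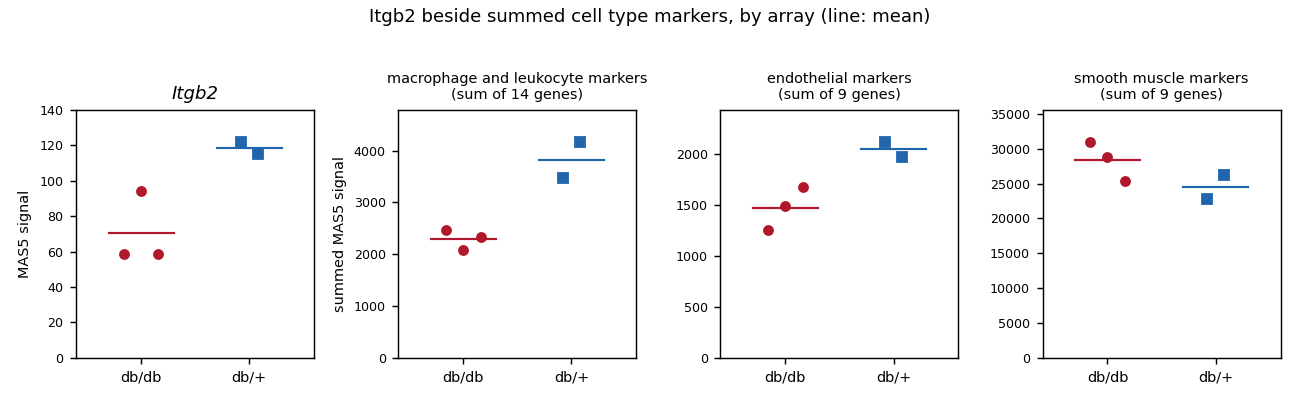
Signal of Itgb2 and summed signals of 14 macrophage and leukocyte, 9 endothelial and 9 smooth muscle markers (y axes, MAS5 signal, linear, from 0); circles are db/db replicates 1, 2 and 3 from left to right, squares db/+ replicates 2 and 3, lines group means. Itgb2, the leukocyte sum and the endothelial sum lie lower on every db/db array than on either db/+ array, while the smooth muscle sums overlap.

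Genes of the actin linkers had small positive log2 changes by their representative probe sets. Actn1, which encodes the filament cross-linker alpha-actinin 1, had 3351.4, 3075.7 and 3108.6 in db/db, against 2762 and 2332.1 in db/+. The groups did not overlap, but the log2 change of 0.32 (SE 0.16, unadjusted p = 0.077, adjusted p = 0.67) did not pass. Its 3 probe sets disagreed. The second had a log2 change of 0.57, and the dimmest had 149.6, 219.3 and 68.5 in db/db against 180.5 and 396 in db/+, which is a log2 change of −0.94 (SE 0.44). The average of the 3 gave −0.02, so no direction can be given for Actn1.

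Vcl, which encodes vinculin, had 2154.6, 2532.9 and 1959.6 in db/db, against 2048.9 and 1824.4 in db/+ (log2 change 0.19 with SE 0.17, limma adjusted p = 0.85). Its db/db replicate 3 lay between the db/+ arrays. Tln1, the gene of talin 1, which binds and activates beta chains, had 1189.1, 1453.2 and 1105.9 in db/db, against 1204.3 and 1051.9 in db/+. Only replicate 2 of db/db was above both db/+ arrays (log2 change 0.14, SE 0.18, adjusted p = 0.90). A second probe set gave 0.23 for Vcl and 0.19 for Tln1. Beside these linkers, all 9 smooth muscle markers had a positive log2 change, with a median of 0.19 and none at an unadjusted p under 0.05. Of all genes tested, 53.9% had a positive log2 change. The part of smooth muscle content in the values of the linkers was not tested.

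The genes of the ILK, PINCH and parvin complex, which ties beta chains to actin beside talin, all had log2 changes under 0, though those of Ilk and Lims1 turned positive when single arrays were left out. Ilk, the integrin-linked pseudokinase, had −0.04 (−0.40 to 0.32), with signals between 1335.2 and 1571.9 in db/db and of 1458 and 1484.1 in db/+. Lims1, which encodes PINCH1, had −0.04 (−0.57 to 0.49), and its 3 probe sets lay between −0.15 and −0.0043. Parva, the alpha-parvin gene, had 356.4, 394.2 and 417.6 in db/db, against 407.4 and 470.1 in db/+. Replicate 3 of db/db lay within the db/+ range, and the log2 change was −0.17 (SE 0.16, adjusted p = 0.86). A dimmer probe set of Parva had 130.6, 81.6 and 146.5 in db/db against 149.7 and 150 in db/+, without overlap but with replicates 1 and 3 of db/db near the db/+ level (log2 change −0.32, SE 0.23).

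Neither of the LIM scaffold genes Pxn and Zyx passed the test. Pxn, which encodes paxillin, had 493, 574.8 and 428.6 in db/db, against 590.6 and 538.6 in db/+ (log2 change −0.18 with SE 0.18, limma adjusted p = 0.86). Its second probe set gave a log2 change of −0.01. Zyx, the gene of zyxin, a scaffold of tensed adhesions, had 2235, 1746.1 and 2011.5 in db/db, against 1825.8 and 1942.1 in db/+ (log2 change 0.08 with SE 0.17, limma adjusted p = 0.94). A dimmer probe set of Zyx, of a type that can read unrelated transcripts, pointed the other way at 160.2, 131.6 and 151.4 in db/db against 166.9 and 247.3 in db/+ (log2 change −0.43 with SE 0.20, limma adjusted p = 0.64). At this probe set the groups did not overlap.

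Src, the tyrosine kinase that acts with focal adhesion kinase, had 128.7, 122.9 and 100.2 in db/db, against 110.9 and 89.9 in db/+. Replicate 3 of db/db lay within the db/+ range (log2 change 0.19, SE 0.17, adjusted p = 0.85). Its other probe set had 100, 100 and 55.7 in db/db, against 52 and 55.6 in db/+, so that replicate 3 of db/db stood at the db/+ level (log2 change 0.50, SE 0.23, unadjusted p = 0.061). Without that replicate the log2 change of this probe set was 0.73 (unadjusted p = 0.0035, adjusted p = 0.30), and without either of the other db/db arrays it was 0.39. The brighter probe set of Src had 0.064 without db/+ replicate 3 and 0.13 without db/db replicate 1. Itgbl1, which is no integrin chain, had 642.8, 763.1 and 641.7 in db/db, against 800.2 and 722.6 in db/+, with db/db replicate 2 inside the db/+ range (log2 change −0.16, SE 0.16, adjusted p = 0.87). The 3 probe sets of Itgb3bp had signals of at most 18.8 on any array and were not tested.

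**Figure D4:**
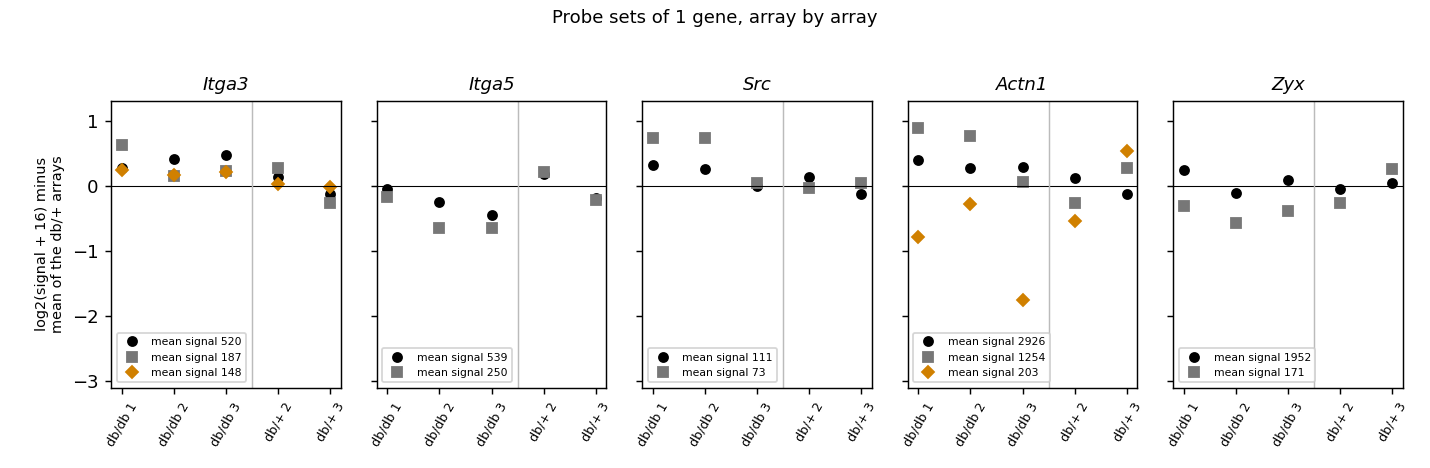
Log2(signal + 16) of each tested probe set of Itga3, Itga5, Src, Actn1 and Zyx minus its mean over the db/+ arrays (y axis), array by array (x axis, db/db left of the grey line); symbols are probe sets, labelled by their mean signal over the 5 arrays. The probe sets of Itga3, Itga5 and Src lie on the same side of 0 on most db/db arrays, while the db/db means of those of Actn1 and Zyx lie on both sides of 0.

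Of the 14 member genes with over 1 tested probe set, 10 had log2 changes of 1 sign at all of them and 4 (Actn1, Itga9, Itgb5 and Zyx) had mixed signs. The plot of probe sets of 1 gene shows 5 of the 14, chosen after their values were seen.

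A list of 62 further genes of focal adhesions and integrin signalling held no call either. Of the 51 tested, 0 had an adjusted p under 0.05 (0.121% of all genes did) and 1 an unadjusted p under 0.05, against 8.63% of all genes. Their median log2 change was 0.01, and the signals did not overlap at 15 genes (29.4%), where all genes gave 25.7%. The smallest p was that of Rapgef1, which encodes an activator of the small GTPase Rap1, with 284.6, 254.6 and 284.8 in db/db against 177.8 and 184.4 in db/+. All db/db arrays were higher (log2 change 0.56, SE 0.15, unadjusted p = 0.0058, adjusted p = 0.33), but a second, dimmer probe set gave a log2 change of 0.04. Log2 changes followed of −0.34 for the phosphatase gene Ptpn12, 0.44 for the actin regulator Enah, 0.37 for the vinculin-binding Sorbs3, 0.56 for Kank2 and 0.28 for the paxillin relative Tgfb1i1. Their adjusted p lay between 0.62 and 0.73, and the value of Kank2 in db/db replicate 1, 394.6, was the highest, with the other arrays between 159.9 and 206.7.

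Among the members and the listed integrin ligands, the log2 change of largest size was that of a ligand, Thbs1. Of 46 listed ligand genes 34 were tested; 0 had an adjusted p under 0.05 and 4 (11.8%) an unadjusted p under 0.05, all lower in db/db, as were 4.27% of all genes. The median log2 change of the 34 was −0.02. Thbs1, which encodes thrombospondin 1, a matrix protein that binds several integrins, had 69.7, 54.2 and 91.9 in db/db, against 245.7 and 164.9 in db/+. All db/db arrays lay far below both db/+ arrays. The log2 change was −1.33 (SE 0.23, unadjusted p = 0.00039, adjusted p = 0.11), and the second probe set of Thbs1 had −1.08 (SE 0.22, adjusted p = 0.17), so neither passed.

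The other 3 ligands at an unadjusted p under 0.05 were Vwf, Nid1 and Icam2. Vwf, the endothelial and platelet adhesion protein, had 185.8, 184.7 and 259.7 in db/db, against 331.4 and 299.2 in db/+ (log2 change −0.57 with SE 0.19, limma adjusted p = 0.46). Nid1, the basement membrane linker nidogen 1, had 369.2, 393.2 and 381 in db/db, against 542.7 and 485.7 in db/+ (−0.42, SE 0.15, adjusted p = 0.52). Icam2, an endothelial ligand of LFA-1, had 89.1, 66.1 and 127.6 in db/db, against 187.6 and 130.8 in db/+ (−0.69, SE 0.26, adjusted p = 0.53). At these probe sets the groups did not overlap in any of the 3, though for Icam2 replicate 3 of both genotypes nearly met. A second, dimmer probe set of Nid1 did overlap, with a log2 change of −0.29 (SE 0.20). Fn1, the fibronectin bound by the product of Itga5, had a log2 change of −0.37 (adjusted p = 0.63), and Col4a1, a basement membrane collagen chain, had 0.36 (adjusted p = 0.64). Dimmer probe sets gave −0.33 for Fn1 and 0.14 for Col4a1.

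Most endothelial markers were lower in db/db beside Vwf and Icam2, although none passed the test. Of 9 markers, Vwf among them, 6 had an unadjusted p under 0.05, all lower in db/db. The median log2 change of the 9 was −0.45, with 0 past the adjusted threshold. The remaining markers, Nos3 (log2 change −0.21), Cdh5 (−0.06) and Kdr (0.04), overlapped between genotypes. Over all genes tested, 4.27% were lower at that unadjusted level and the median log2 change was 0.02. Summed signals of the 9 markers were between 1251 and 1669 in db/db and between 1971 and 2114 in db/+, and none was at 0 on any array. The part of endothelial content in these ligand values and in that of Itga5 was not tested.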

How the data were processed

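Per the submitters' processing notes, the authors used MAS5, and the deposited table held 1 linear signal intensity per probe set and array; the version and the genome build are not given in the sources used here. The 2% trimmed mean was 150.05 on every array, and no further scaling was applied. Detection calls were not used. The 64 control probe sets were left out. Of the other 22626, 20380 had 1 gene symbol, 691 several and 1555 none, and only those with 1 were named; all 65 member probe sets matched the RefSeq gene table of GRCm38.p6 by Entrez identifier.

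Signals were put on the scale log2(signal + 16), filtered at the 40th percentile of mean signal (40.6) and tested between genotypes by lmFit and eBayes of limma 3.58.1 (R 4.3.3), two-sided and with genotype as the sole term. P-values were adjusted by Benjamini-Hochberg over all 13574 probe sets, with a threshold of 0.05. The fit had 3 residual and 5.39 prior degrees of freedom. It was also run on simulated data drawn from its own variance model. Such data meet the assumptions of the fit, so that run cannot show how well they hold for these arrays. Members and lists were chosen with earlier results of these data known, so lists are described by counts and medians, without tests. Per-array values are given for the 16 tested member genes with the smallest unadjusted p; Itgb1, further probe sets and dim members were added after their values were seen. Of each list of related genes, up to 6 with the smallest p are named. Alternatives were other pseudocounts, filters, normalizations and variance models, weighted arrays, a block for the replicate number, leaving out single arrays, and averaging the probe sets of a gene.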

Additional observations from a re-analysis of the deposited data

How the results depend on the processing

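In 14 alternatives, 0 member probe sets had an adjusted p under 0.05. The member probe sets at an unadjusted p under 0.05 numbered 1 with a pseudocount of 1, 5 with no filter and from 3 to 5 when 1 array was left out. Over all probe sets the 13 calls became 3 with a pseudocount of 1, 37 with a pseudocount of 64, 1 with no filter, 35 with a filter at the 60th percentile, 41 with trend and robust, 48 with array weights, and from 1 to 13 when 1 array was left out. The median log2 change of the members stayed between −0.0026 (mean of a gene's probe sets) and 0.06 (no filter). Of 21 member genes, 13 kept their sign in every alternative run and 8 turned. The mean of probe sets turned Actn1 to −0.016 and Zyx to −0.17, and array weights turned Lims1 to 0.013. With the replicate number as a block, calls over all probe sets numbered 22, and Itgb1, Lims1 and Zyx turned to −0.048, 0.16 and −0.0068; db/db replicate 1 then adds nothing. With 1 array left out, log2 changes lay between −0.11 and 0.0071 for Ilk, −0.0084 and 0.10 for Itga7, −0.11 and 0.13 for Itgav, −0.048 and 0.074 for Itgb1, −0.19 and 0.15 for Itgb5, −0.24 and 0.17 for Lims1, and −0.0068 and 0.17 for Zyx. The cause of these turns was not tested. No label says that the numbers mark pairs, so they were not taken as pairs. Same-numbered arrays (replicates 2 and 3) deviated together with r = 0.07, a single correlation that cannot exclude pairing. Leaving out a db/+ array leaves 1, which is then assumed to vary like the db/db arrays. Signals near the filter's level limit what can be said of the dim leukocyte chains.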
